A study of Mus musculus with 9 samples.

Results

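This report is about 8 mouse genes, the TIMP inhibitors Timp1, Timp2, Timp3 and Timp4 and the matrix metalloproteinases Mmp2, Mmp9, Mmp14 and Mmp15, in the retina. They were taken by symbol: every non-control probe whose transcript accession maps to a member was used, which gave 9 of the 39429 probes on the array and 8 of the 23889 genes kept for testing. Timp1 and Mmp15 were chosen by their measured levels on these arrays, so their levels are given as a description with no test. The other 6 members were read from a test over all genes.

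Retinal RNA was measured on 9 single-colour Agilent arrays in 3 groups of 3: retinas that received the peptide AAP, retinas that received the peptide HAN, and retinas that received phosphate-buffered saline (PBS), the negative control. The series title gives AAP and HAN as peptides with high affinity for vascular endothelial growth factor (VEGF). All mice were adult C57BL/6 males, 12 in a group, and in all of them the right eye was injected into the vitreous, so the PBS retinas carry an injection too. The labels give 1 µM for all 3 groups, and the retinas were collected 7 days later. Each array held RNA from a pool of 4 retinas, so a p-value here measures the spread between pools and not between mice. In a pooled tissue, fewer cells of a type and less RNA per cell cannot be told apart. All 20 defining retina markers were well above background on every array.

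Matrix metalloproteinases are zinc-dependent enzymes that cut collagens, laminins and other matrix proteins. They are made as inactive proenzymes, and TIMPs block the active enzymes by sitting in the catalytic site. In the eye, the gelatinases Mmp2 and Mmp9 are known for cutting the type IV collagen of vessel basement membranes, and TIMP3 is known in humans as a component of Bruch's membrane, the sheet below the pigment epithelium.

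RefSeq holds a promoter window, 250 bases before to 50 bases after the gene start, for 6 of the 8 members (build GRCm38.p6); Mmp2 and Mmp9 were not matched. The windows below belong to the 3 members whose groups did not overlap in at least 1 comparison with PBS. They lie at chrX:20869916-20870215 (plus strand, Timp1), chr8:95352046-95352345 (plus strand, Mmp15) and chr14:54431348-54431647 (plus strand, Mmp14). Capitals mark the GC box GGGCGG on either strand and, in Timp1, the letters TGAGTAA, a variant of the AP-1 motif.
Timp1: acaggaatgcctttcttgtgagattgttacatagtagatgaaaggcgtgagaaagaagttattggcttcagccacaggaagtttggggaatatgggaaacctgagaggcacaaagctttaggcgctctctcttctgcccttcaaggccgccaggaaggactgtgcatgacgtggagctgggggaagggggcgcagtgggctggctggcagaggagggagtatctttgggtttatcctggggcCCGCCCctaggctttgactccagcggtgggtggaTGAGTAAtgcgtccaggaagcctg
Mmp15: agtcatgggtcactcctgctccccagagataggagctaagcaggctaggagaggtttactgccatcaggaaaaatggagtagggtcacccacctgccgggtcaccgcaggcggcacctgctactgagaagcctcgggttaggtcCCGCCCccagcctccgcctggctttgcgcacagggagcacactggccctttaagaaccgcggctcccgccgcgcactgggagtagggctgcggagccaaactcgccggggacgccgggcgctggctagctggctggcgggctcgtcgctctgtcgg
Mmp14: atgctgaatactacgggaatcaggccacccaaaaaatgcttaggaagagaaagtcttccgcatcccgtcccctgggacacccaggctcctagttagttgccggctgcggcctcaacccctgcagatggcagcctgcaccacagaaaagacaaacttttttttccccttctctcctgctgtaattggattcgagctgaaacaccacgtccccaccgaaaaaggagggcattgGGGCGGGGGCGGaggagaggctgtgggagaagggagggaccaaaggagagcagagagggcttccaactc
The Timp1 window holds TGAGTAA with its first base at position 27, counted from 1 at the gene start, and no other member window does. On either strand, TGAGTAA is found in 2.68% of all 32851 windows. The GC box is in 5 of the 6 member windows, against 35.7% of all windows, and stands at adjoining positions -19 and -13 in Mmp14. The letters CAGGAA of the Ets core were in 4 of the 6 (30.6% of all windows) and those of the hypoxia response core, ACGTG, in 2 of the 6 (19.6%). None of the 6 held the AP-1 consensus TGANTCA (7.81% of all windows), the TATA box TATAAA (13.6%), the STAT motif TTCNNNGAA (8.30%) or the NF-kB motif GGGNNTTCC (5.82%). Both strands were read, and a match is a string of letters and not a bound site.

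Levels below are on the log2 scale relative to the 75th percentile of the array's signal, so that 0 is the 75th percentile and a difference of 1 is a doubling. Each probe has its own brightness, so a level is compared between arrays and not between genes. All 9 member probes were well above background on all 9 arrays.

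**Figure D1:**
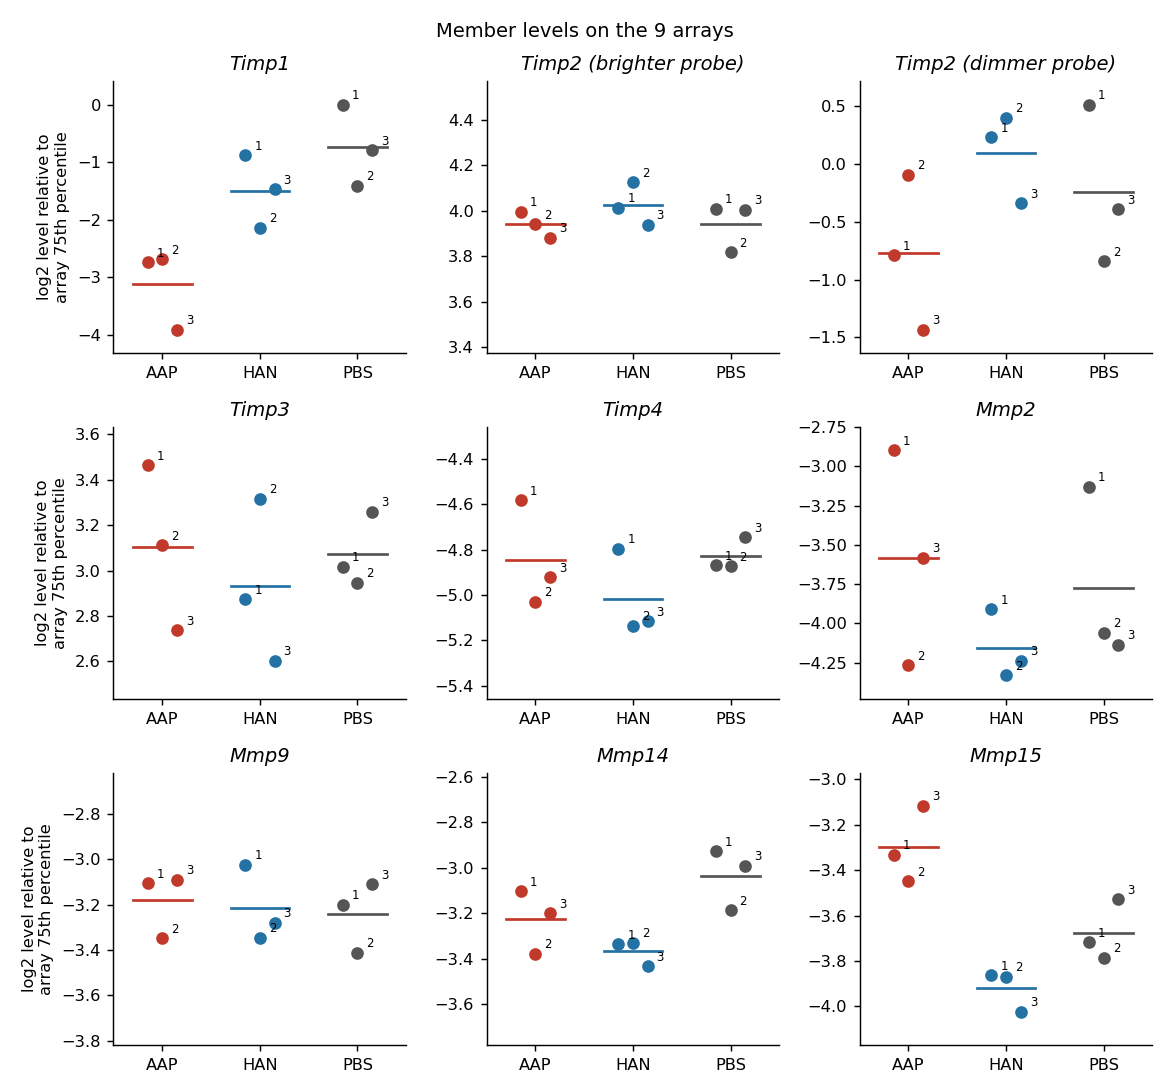
Log2 level of each member probe (y axis, relative to the array's 75th percentile) on the 9 arrays, by group (x axis); points are arrays with their replicate number, and lines are group means. Timp1 lies between -3.92 and -2.69 in AAP, below all HAN and PBS arrays, and Mmp15 lies highest in AAP and lowest in HAN with no overlap between the 3 groups.

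Timp1, a secreted inhibitor of many metalloproteinases that is known to be induced in injured and inflamed tissue, was lowest in the AAP retinas. Its level was -2.74, -2.69 and -3.92 in the AAP retinas, -0.88, -2.14 and -1.47 in the HAN retinas, and 0.00048, -1.41 and -0.79 in the PBS retinas. All 3 AAP arrays lay below every other array, while HAN and PBS overlapped. As unscaled probe intensity this was 306, 299 and 88.4 in AAP, 1096, 453 and 811 in HAN, and 2344, 802 and 1115 in PBS. The group means were -3.12 ± 0.69 in AAP, -1.50 ± 0.63 in HAN and -0.74 ± 0.71 in PBS (SD, n = 3 each). Timp1 was thus 5.21-fold lower in AAP than in PBS (log2 difference -2.38), 3.07-fold lower in AAP than in HAN (-1.62), and 1.70-fold lower in HAN than in PBS (-0.76). The first 2 differences were larger than the SD of either group, and the third was only slightly larger. This is a description and no test, since Timp1 was picked for its values. Leaving out each array in turn kept the AAP difference from PBS between -2.72 and -1.98, while that of HAN from PBS ran from -1.10 to -0.40. With slide as a fixed block the difference of HAN from PBS was -0.22.

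Timp1 was also among the more variable genes within a group. Its SD pooled over the 3 groups was 0.68, larger than that of 95.6% of genes, whose median was 0.13. Its level ran with a list of 16 reactive glia markers, which was at -0.67, -0.94 and -2.37 in AAP, -0.34, -0.98 and -0.22 in HAN, and 0.23, -0.24 and 0.02 in PBS (mean log2 level minus the PBS mean). Over the 9 arrays, Pearson's r between Timp1 and this list was 0.92 (Spearman's rho 0.87), and 0.82 after the group means were removed. For 15 microglia and macrophage markers, which ranged from -1.13 to -0.37 in AAP, from -1.01 to -0.18 in HAN and from -0.10 to 0.06 in PBS, r was 0.83 (rho 0.88). Of the listed markers on the array, 15 of 16 reactive glia markers were above background on each AAP and HAN array and 16 on each PBS array. All 16 enter the list means and the r, also on arrays where 1 was not above background. For microglia the counts were 14 to 15 of 15 in AAP, 15 in HAN and 15 in PBS. These correlations describe arrays that share groups and slides, and the part of these cells in the Timp1 level was not tested.

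Mmp15, a membrane-anchored metalloproteinase, differed in opposite directions for the peptides, by smaller amounts than Timp1. Its level was -3.33, -3.45 and -3.12 in AAP, -3.86, -3.87 and -4.02 in HAN, and -3.72, -3.79 and -3.53 in PBS. The 3 groups did not overlap: every AAP array lay above every PBS array, and every HAN array lay below. The group means were -3.30 ± 0.17 in AAP, -3.92 ± 0.09 in HAN and -3.68 ± 0.13 in PBS (SD, n = 3 each). Mmp15 was 1.30-fold higher in AAP than in PBS (log2 difference 0.38), 1.18-fold lower in HAN than in PBS (-0.24) and 1.54-fold higher in AAP than in HAN (0.62), each larger than the SD of either group. Mmp15 too was picked for its values, so this comparison with the SD is no test. The probe was dim, at 154 to 203 intensity units in AAP, 137 to 139 in HAN and 155 to 178 in PBS.

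The slides that carried the arrays were not balanced over the groups. Slide 1 held the 3 PBS pools and AAP 1, slide 2 held AAP 2, AAP 3, HAN 1 and HAN 2, and slide 3 held HAN 3. Within slide 1, AAP 1 differed from the PBS mean by -2.01 for Timp1 and 0.35 for Mmp15. Within slide 2, the AAP arrays differed from the HAN arrays by -1.79 for Timp1 and 0.58 for Mmp15. No slide held both HAN and PBS, so for that comparison slide and group cannot be told apart within a slide.

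Among the 6 tested members, 0 passed the test in any of the 3 comparisons (limma, Benjamini-Hochberg adjusted p under 0.05 over 23889 genes). Over all genes the share that passed was 0.00419% in AAP against PBS, 0.00419% in HAN against PBS and 0% in AAP against HAN. At an unadjusted limma p under 0.05, 0 of the 6 passed in AAP against PBS (6.79% of all genes), 1 in HAN against PBS (9.65%) and 0 in AAP against HAN (8.54%). The groups did not overlap for 0 of the 6 in AAP against PBS, where 11.9% of all genes did not overlap, for 1 in HAN against PBS (20.9%), and for 0 in AAP against HAN (14.3%). With Timp1 and Mmp15 counted in, 2 of 8 did not overlap in each comparison, a count that the choice of these 2 genes enters. The 3 comparisons share arrays.

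**Figure D2:**
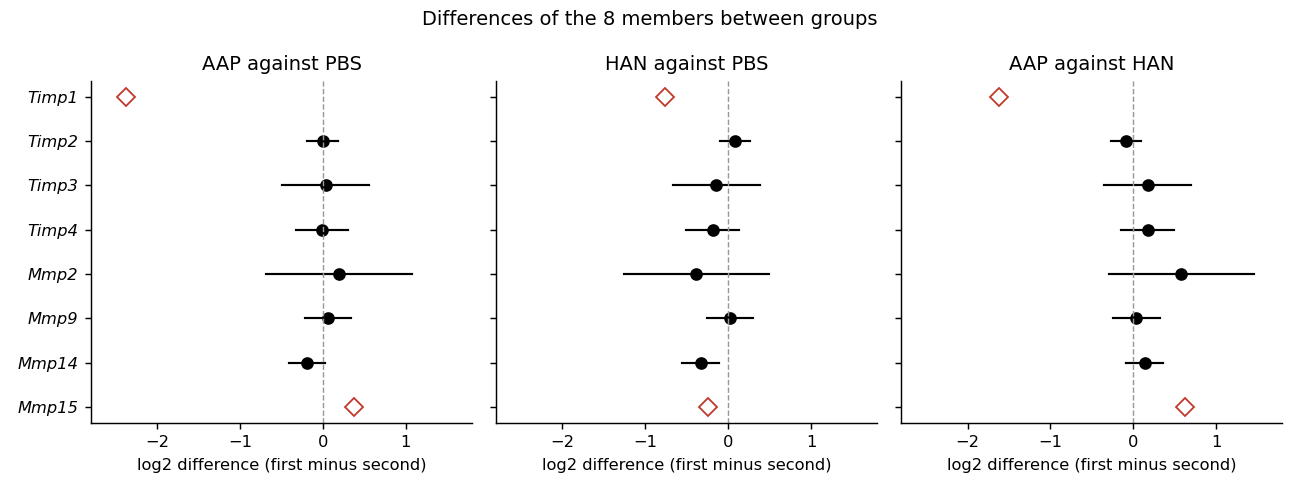
Log2 difference between groups (x axis, first named minus second) for the 8 members (y axis) in the 3 comparisons. Black points with lines are the 6 tested members with limma 95% intervals; open diamonds are Timp1 and Mmp15, picked for their values and shown without an interval. Timp1 stands at -2.38 and -1.62 in the comparisons with AAP, and of the tested members only Mmp14 in HAN against PBS has an interval that leaves out 0.

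Mmp14, the membrane-anchored metalloproteinase that activates the Mmp2 proenzyme on the cell surface, was the tested member with the smallest p. Its level was -3.10, -3.38 and -3.20 in AAP, -3.34, -3.33 and -3.43 in HAN, and -2.93, -3.19 and -2.99 in PBS. All HAN arrays lay below all PBS arrays, while AAP overlapped both. The difference of HAN from PBS was -0.33 on the log2 scale, or 1.26-fold lower (95% interval -0.56 to -0.11, limma adjusted p = 0.419). With slide as a fixed block it was -0.11 (limma adjusted p = 0.878). AAP differed from PBS by -0.19 (-0.42 to 0.03, limma adjusted p = 0.737) and from HAN by 0.14 (-0.08 to 0.36, limma adjusted p = 0.635). Unlike Timp1, its spread within groups (pooled SD 0.12) was near the median of all genes.

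Mmp2, gelatinase A, which cuts denatured and type IV collagen, varied widely between pools of a group in AAP and PBS and less in HAN. Its level was -2.90, -4.27 and -3.58 in AAP, -3.91, -4.33 and -4.24 in HAN, and -3.13, -4.06 and -4.14 in PBS. AAP 1 and PBS 1 were the highest arrays, and the groups overlapped throughout. The difference was 0.19 in AAP against PBS (95% interval -0.68 to 1.07, limma adjusted p = 0.935), -0.38 in HAN against PBS (-1.26 to 0.49, limma adjusted p = 0.786) and 0.58 in AAP against HAN (-0.30 to 1.46, limma adjusted p = 0.622). Without AAP 1 the difference of AAP from PBS was -0.15. With slide as a fixed block HAN differed from PBS by 0.68, and within slide 2 AAP differed from HAN by 0.20. Each interval includes 0, and that of AAP against HAN reaches 1.46.

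AAP 1 and PBS 1, the arrays highest in Mmp2, were also highest in the cornea and fibroblast lists below. Cornea, iris and ciliary body markers (12 measured) were at 2.15, -0.48 and -1.67 in AAP, -0.24, -0.77 and -0.30 in HAN, and 1.90, -1.10 and -0.80 in PBS. Fibroblast and sclera markers (12 measured) were at 0.56, -0.34 and -0.74 in AAP, -0.28, 0.16 and -0.43 in HAN, and 0.85, -0.77 and -0.08 in PBS. Skeletal muscle markers (13 measured) were at 5.14, -0.02 and 3.90 in AAP, 0.02, -0.01 and 0.0032 in HAN, and 0.32, -0.29 and -0.03 in PBS. Over the 9 arrays Mmp2 had an r of 0.76 (rho 0.38) with the cornea, iris and ciliary body list, 0.74 (rho 0.50) with 12 endothelial markers, 0.73 (rho 0.70) with the muscle list, 0.60 (rho 0.27) with the fibroblast list and -0.45 (rho -0.67) with the lens list. After the group means were removed, r was highest for the endothelial markers (0.82), which were at 0.26, -0.20 and 0.096 in AAP, -0.069, 0.11 and 0.027 in HAN, and 0.15, -0.081 and -0.069 in PBS. All 12 endothelial markers were above background on every array. Most of the cornea, fibroblast and muscle markers were above background on every array: 12 to 14 of 14 cornea, iris and ciliary body markers, 12 of 12 fibroblast markers, and 11 to 16 of 16 muscle markers in AAP, 13 to 15 in HAN and 13 to 16 in PBS. Their part in the Mmp2 level was not tested. Mmp15 had an r of 0.75 (rho 0.37) with the muscle list and of -0.64 (rho -0.33) with the reactive glia list, and the part of these cells in the Mmp15 level was not tested.

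**Figure D3:**
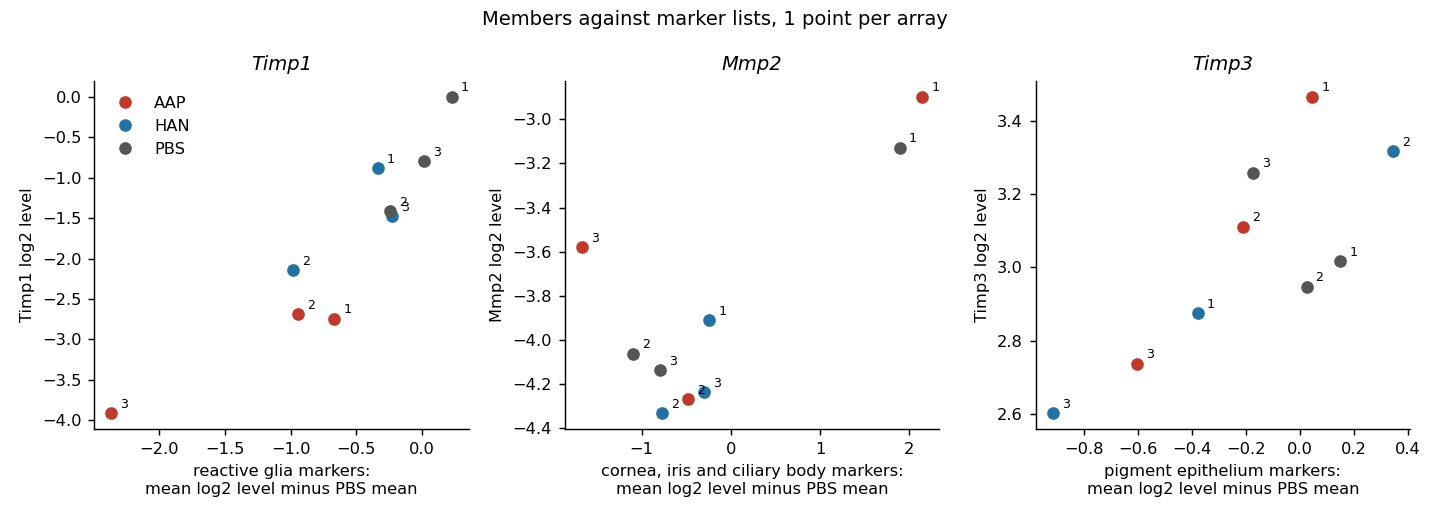
Log2 level of Timp1, Mmp2 and Timp3 (y axes) against the mean log2 level of a marker list minus its PBS mean (x axes); points are the 9 arrays with their replicate number, coloured by group. Timp1 follows the reactive glia list (r = 0.92), Mmp2 is highest in AAP 1 and PBS 1, the arrays highest in cornea, iris and ciliary body markers, and Timp3 follows the pigment epithelium list (r = 0.79).

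Mmp9, gelatinase B, which is supplied by leukocytes as well as by resident cells, was level across the groups. It was at -3.11, -3.35 and -3.09 in AAP, -3.03, -3.35 and -3.28 in HAN, and -3.20, -3.41 and -3.11 in PBS. All groups overlapped, and replicate 2 was the lowest array in each. The differences were 0.06 in AAP against PBS (95% interval -0.22 to 0.34), 0.02 in HAN against PBS (-0.26 to 0.31) and 0.04 in AAP against HAN (-0.25 to 0.32), with limma adjusted p of 0.938, 0.965 and 0.920. These intervals leave out a change of 1.5-fold in either direction.

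Timp2, the inhibitor that also takes part in the activation of the Mmp2 proenzyme by Mmp14, has a pair of probes. The brighter, which represents the gene, was at 3.996, 3.94 and 3.88 in AAP, 4.01, 4.13 and 3.94 in HAN, and 4.01, 3.82 and 4.004 in PBS. The groups overlapped, and the pooled SD was 0.09, the smallest of the 8 members. AAP differed from PBS by -0.0037 (95% interval -0.19 to 0.18, limma adjusted p = 0.997), HAN from PBS by 0.08 (-0.10 to 0.27, limma adjusted p = 0.782), and AAP from HAN by -0.09 (-0.27 to 0.10, limma adjusted p = 0.700).

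The dimmer Timp2 probe, A_65_P12392, is assigned to the same transcript and varied far more. It was at -0.79, -0.09 and -1.43 in AAP, 0.23, 0.40 and -0.34 in HAN, and 0.51, -0.84 and -0.39 in PBS. Its groups overlapped in all comparisons, with differences of -0.53 in AAP against PBS, 0.34 in HAN against PBS and -0.87 in AAP against HAN, given without a test. The sign was that of the brighter probe in each comparison, but the sizes did not match. In AAP against PBS the brighter probe was near 0, at -0.0037, so a shared sign says little there. Over the 9 arrays the probes had an r of 0.72 with each other, and the dimmer probe had an r of 0.66 with Timp1.

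Timp3, the inhibitor that stays bound to the matrix and is also known to keep VEGF from its receptor KDR, did not differ between groups beyond its spread. It was at 3.47, 3.11 and 2.74 in AAP, 2.87, 3.32 and 2.60 in HAN, and 3.02, 2.95 and 3.26 in PBS, so that both peptide groups reached above and below all PBS arrays. The differences were 0.03 in AAP against PBS (95% interval -0.49 to 0.56, limma adjusted p = 0.988), -0.14 in HAN against PBS (-0.67 to 0.38, limma adjusted p = 0.876) and 0.17 in AAP against HAN (-0.35 to 0.70, limma adjusted p = 0.782). Timp3 ran with the mean of the 12 measured pigment epithelium markers (r = 0.79, rho 0.78 over 9 arrays). This mean was at 0.05, -0.21 and -0.60 in AAP, -0.38, 0.35 and -0.92 in HAN, and 0.15, 0.03 and -0.18 in PBS. The markers did not move as 1 set. In AAP against PBS 6 were higher and 6 lower, from -1.36 for Mlana to 0.54 for Rgr. In HAN against PBS 2 were higher and 10 lower (48.5% of all genes were lower). All 12 were above background on every array, and their part in the Timp3 level was not tested.

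Timp4 was the dimmest probe, at 44.0 to 85.5 intensity units in AAP, 56.8 to 72.7 in HAN and 72.1 to 80.1 in PBS. The lowest signal called well above background on an array was 17.2 to 25.6 units. On the log2 scale it was at -4.58, -5.03 and -4.92 in AAP, -4.80, -5.14 and -5.12 in HAN, and -4.87, -4.87 and -4.75 in PBS, with all groups overlapping. The differences were -0.02 in AAP against PBS (95% interval -0.33 to 0.30, limma adjusted p = 0.990), -0.19 in HAN against PBS (-0.50 to 0.13, limma adjusted p = 0.694) and 0.17 in AAP against HAN (-0.14 to 0.49, limma adjusted p = 0.667).

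Of the 28 pairs of members, 22 had an r above 0 over the 9 arrays and 26 after the group means were removed. Pairs with Timp1 or Mmp15 are included. The share among pairs of all genes was not worked out, so these counts do not show that the members move together. Over the 9 arrays, Timp1 and Mmp15 ran in opposite directions (r = -0.67, rho -0.47), a pair chosen for their values. The closest pair of other members was Timp4 with Mmp2 (r = 0.69, rho 0.73). Mmp2 with Mmp14, the enzyme and its activator, had an r of 0.63 (rho 0.60). After the group means were removed, the highest r were 0.80 for Timp2 with Timp3, 0.79 for Mmp2 with Mmp14 and 0.74 for Timp4 with Mmp9.

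The genes most like each member were ranked by r over the 9 arrays among 14341 genes that were above background on all arrays. For Timp1 they were Clptm1l (r = 0.97, rho 0.98), the shared interleukin-6 family receptor chain Il6st (0.95, rho 0.93), the phosphodiesterase gene Pde3b (0.94, rho 0.92), Fblim1 (0.94, rho 0.93) and Pbxip1 (0.94, rho 0.97). Without the 2 arrays farthest from the Timp1 median, r was 0.95 for Clptm1l, 0.90 for Il6st and 0.83 for Pde3b. Clptm1l varied over a much narrower range than Timp1, at 0.61, 0.63 and 0.58 in AAP, 0.76, 0.70 and 0.74 in HAN, and 0.79, 0.71 and 0.77 in PBS.

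For Mmp15 the most similar genes were the ATP synthase subunit Atp5l (r = 0.94, rho 0.87), Sh3bp5l (0.94, rho 0.97), the autophagy gene Map1lc3a (0.93, rho 0.87), the prolyl hydroxylase gene Egln2 (0.93, rho 0.88) and Adam17 (0.92, rho 0.90), the protease that sheds tumour necrosis factor. Those of Mmp14 were Rnf224 (0.94), Glmp (0.92), Slc14a2 (0.91), Mfsd5 (0.90) and Lonrf2 (0.90). Those of Mmp2 were Serpinf1, which encodes the antiangiogenic factor PEDF (0.94), Chad, a cartilage matrix protein (0.93), the transcription factor Klf4 (0.92), Fam83e (0.92) and Crip1 (0.91); without the 2 farthest arrays r was 0.52 for Fam83e. Those of Mmp9 were Slc27a3, Trarg1, Plppr3, Adgrl1 and Gnal (r from 0.89 to 0.91). Those of Timp2 were Id1, Itpr3, Aifm3, Lgi1 and Ldhd (0.92 to 0.96), those of Timp3 were Sptlc1, Gstt3, Ech1, Tbrg1 and Wfikkn2 (0.91 to 0.93), and those of Timp4 were Sdr42e1, Gak, Itgb8, Bok and Flii (0.90 to 0.94).

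The rest of the pathway was read from 5 lists: other metalloproteinases, genes of the ADAM and ADAMTS families, activators, inhibitors and binding partners, matrix substrates, and inducers of Timp1 and Mmp transcription. None of their genes passed in either direction in any comparison (limma adjusted p under 0.05). Of 19 other metalloproteinases, 18 were on the array and 6 passed the filter on dim probes; the 12 others were above background on 0 to 2 of the 9 arrays each. Mmp10, or stromelysin 2, passed the filter through PBS, where it was above background on all 3 arrays, against 1 HAN array and 0 AAP arrays. Of the measured ones, Mmp11 was at -0.28 in AAP against PBS (limma adjusted p = 0.740) and -0.37 in AAP against HAN (limma adjusted p = 0.574), and Mmp7 was at 0.22 in AAP against PBS and 0.20 in HAN against PBS (limma adjusted p = 0.800 and 0.697). In AAP against HAN, the membrane-type enzyme Mmp24 was at 0.12 and Mmp23 at 0.31 (limma adjusted p = 0.668 and 0.674).

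Of 29 measured ADAM and ADAMTS genes, 21 were lower and 8 higher in AAP than in PBS, with a median of -0.05 against 0.0048 over all genes, of which 48.6% were lower. An unadjusted p under 0.05 was found for 3 of the 29 (6.79% of all genes). Adamts7 was at -7.34, -5.57 and -7.17 in AAP, -7.34, -5.88 and -7.15 in HAN, and -6.43, -6.63 and -6.58 in PBS. On AAP 1, AAP 3, HAN 1 and HAN 3 its signal was below the lowest called well above background there. Adamts7 thus passed the filter through PBS. Adamts12 was below that limit on AAP 2 and AAP 3. Both enter the counts and medians of this list. Adamts1, a protease that cuts proteoglycans and is known to be antiangiogenic, was at 0.10, -0.04 and -0.24 in AAP, 0.78, 0.45 and 0.59 in HAN, and 0.77, 0.41 and 0.45 in PBS. All AAP arrays lay below the HAN and PBS arrays (log2 difference -0.60 from PBS, limma adjusted p = 0.621; -0.67 from HAN, limma adjusted p = 0.574). Adam17 went the other way, at -4.43, -4.45 and -4.24 in AAP, -4.64, -4.66 and -4.74 in HAN, and -4.57, -4.64 and -4.66 in PBS (0.25 from PBS, limma adjusted p = 0.668; 0.31 from HAN, limma adjusted p = 0.574). Adamts16 was at -0.49 in AAP against PBS and -0.41 in AAP against HAN (limma adjusted p = 0.668 and 0.574). In HAN against PBS 17 of 29 were higher and 12 lower (48.5% of all genes were lower), with a median of 0.03. Adam22, Adam11 and Adamts10 were at 0.23, 0.18 and 0.21 (limma adjusted p = 0.485, 0.571 and 0.628).

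Of 25 measured activators, inhibitors and binding partners, 20 were lower in AAP than in PBS (48.6% of all genes were lower), with a median of -0.19, and 6 had an unadjusted p under 0.05 (6.79% of all genes). Plat, tissue plasminogen activator, which starts the plasmin cascade that activates metalloproteinases, was at -2.33, -2.76 and -2.92 in AAP, -2.42, -2.76 and -2.37 in HAN, and -1.71, -1.98 and -2.17 in PBS. Both peptide groups lay below all PBS arrays (-0.71 in AAP, limma adjusted p = 0.626; -0.56 in HAN, limma adjusted p = 0.443). Plaur, the urokinase receptor, was above background on 1 of the 3 AAP arrays and on all 3 HAN and all 3 PBS arrays, so no difference from AAP is given for it. Plaur passed the filter through HAN and PBS, is counted among the 20 and the 6, and enters the median. Lcn2, which protects Mmp9 from degradation in humans, was at 0.44, -0.31 and -1.63 in AAP, 0.11, -0.21 and 0.75 in HAN, and 1.19, 1.099 and 1.25 in PBS (-1.68 in AAP against PBS, limma adjusted p = 0.664). Lcn2 is also in the reactive glia list, as is Cd44 of the same 25 genes.

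In HAN against PBS, 18 of those 25 genes were lower, with a median of -0.10 against 0.0054 over all genes, of which 48.5% were lower. The testican Spock2 was at 0.16 and the caveolin Cav1 at -0.30 (limma adjusted p = 0.449 and 0.536). In AAP against HAN, 16 of 25 were lower, with a median of -0.16 against 0.0027 over all genes, of which 49.4% were lower. The proprotein convertase Pcsk5 was at -0.52 (limma adjusted p = 0.574). Thbs2, a thrombospondin that clears Mmp2, passed the filter through HAN, with 3 HAN arrays, 1 AAP array and 1 PBS array above background, so no difference is given for it. In AAP against HAN, Thbs2 and Plaur are both counted among the 16 and enter the median. Thbs2 also enters the median of HAN against PBS. In AAP against PBS, Thbs2 is counted among the lower genes and enters the median as well.

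All 27 matrix substrates were measured. In AAP against PBS 17 were lower (48.6% of all genes were lower), with a median of -0.03. The brain proteoglycan Bcan was at 0.19, and the laminin chains Lama4 and Lama5 were at 0.35 and -0.34 (limma adjusted p = 0.724, 0.783 and 0.824). Leaving out each array in turn moved that median between -0.25 and 0.15. In HAN against PBS 17 were higher and 10 lower (48.5% of all genes were lower), with a median of 0.17. Bcan was at 0.25, vitronectin (Vtn) at -0.20 and dystroglycan (Dag1) at 0.17 (limma adjusted p = 0.437, 0.554 and 0.594). In AAP against HAN 19 were lower (49.4% of all genes were lower), with a median of -0.17. The type IV collagen chains Col4a1 and Col4a2 were at -2.19 and -1.90 (limma adjusted p = 0.574 for both), with Col5a1 at -0.55 (limma adjusted p = 0.574).

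Col4a1 ran from -1.41 to 1.02 in AAP, from 0.88 to 2.03 in HAN and from -1.25 to 2.02 in PBS. The 16 lens markers, all above background on all arrays, had means of -1.38, 2.35 and -1.94 in AAP, 0.50, 1.41 and 1.31 in HAN, and 1.12, -2.18 and 1.06 in PBS, and their part in the collagen levels was not tested.

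The list named inducers of Timp1 and Mmp transcription had the lowest median of the 5 pathway lists in AAP against PBS. It also holds Socs3, a feedback inhibitor and not an inducer, which is in each count below. The reactive glia and microglia marker lists had lower ones, of -1.33 and -0.72, and their part in the inducers was not tested. Of 29 measured genes 25 were lower (48.6% of all genes were lower), with a median of -0.25. The groups did not overlap for 10 of the 29 (11.9% of all genes), and 4 had an unadjusted p under 0.05 (6.79% of all genes). Leaving out each array in turn, the median stayed between -0.31 and -0.18. Cebpd, a transcription factor of the acute-phase response, was at 2.26, 1.59 and 0.66 in AAP, 2.86, 1.87 and 2.74 in HAN, and 2.99, 2.87 and 2.88 in PBS (-1.41 in AAP against PBS, limma adjusted p = 0.664). Socs3, the feedback inhibitor that STAT3 induces, was at -0.63, -1.12 and -2.63 in AAP, 0.13, -1.03 and -0.04 in HAN, and 0.68, -0.03 and -0.20 in PBS (-1.61, limma adjusted p = 0.684). As with Timp1, AAP 3 was the lowest array for both, and HAN 2 was the lowest HAN array. Il6st was at -0.21 in AAP against PBS and -0.10 in HAN against PBS (limma adjusted p = 0.687 and 0.698). Cebpd, Socs3, Stat3 and Osmr are also in the reactive glia list. Of these, Cebpd, Socs3 and Stat3 are among the 4 with an unadjusted p under 0.05. Fosl1 was at -6.03, -6.66 and -8.17 in AAP, -7.21, -7.63 and -5.34 in HAN, and -6.06, -5.22 and -6.19 in PBS. On AAP 2, AAP 3, HAN 1 and HAN 2 its signal was below the lowest called well above background there. Fosl1 thus passed the filter through PBS. Runx1 was below that limit on AAP 2 and AAP 3. Both enter the counts and medians of this list, here and below.

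The same list had 19 of 29 genes lower in HAN than in PBS (48.5% of all genes were lower), with a median of -0.04. The immediate early gene Egr1 was at -0.62 and the AP-1 subunit Jund at 0.16 (limma adjusted p = 0.429 and 0.472). In AAP against HAN 25 of 29 were lower (49.4% of all genes were lower), with a median of -0.17. There Jun, an AP-1 subunit, was at -0.31, Tgfb2 at -0.41 and the ciliary neurotrophic factor Cntf at -1.04 (limma adjusted p = 0.574 for each).

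**Figure D4:**
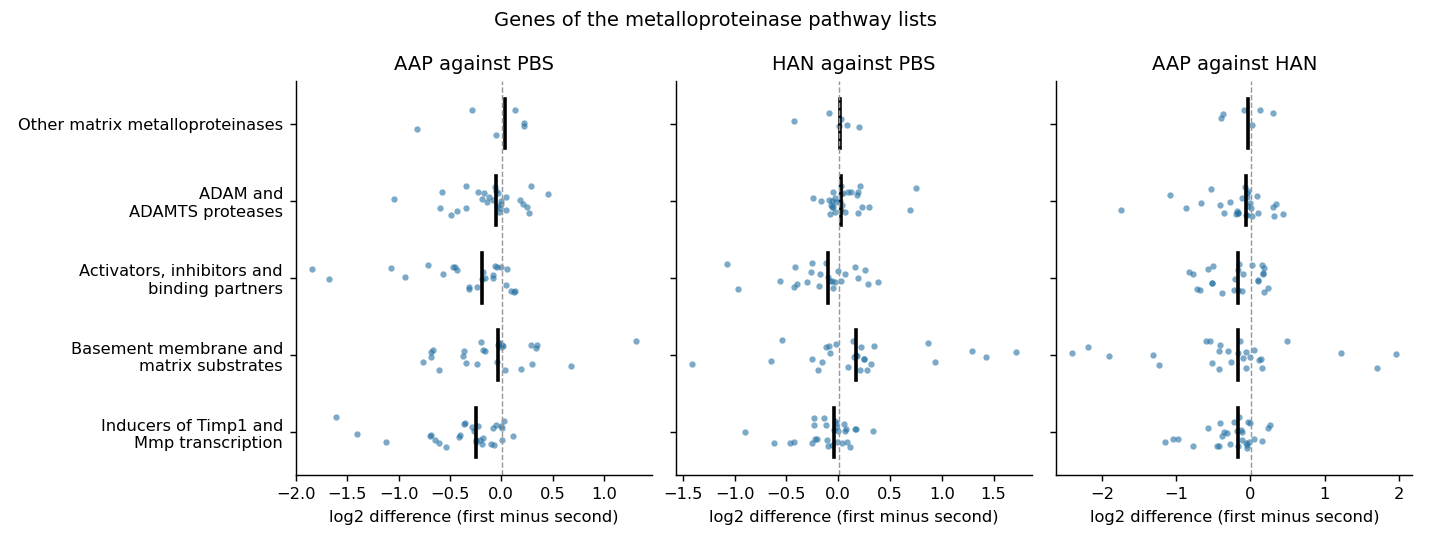
Log2 difference (x axis, first named minus second) of each measured gene of the 5 pathway lists (y axis) in the 3 comparisons; points are genes, black bars are list medians and the dashed line is the median of all genes. In AAP against PBS the inducer list has a median of -0.25 and the list of activators, inhibitors and binding partners one of -0.19. Mmp10, Plaur, Thbs2, Adamts7, Adamts12, Fosl1 and Runx1 are among the points, though each was not above background on most arrays of at least 1 group.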

How the data were processed

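Retinal RNA labelled with Cy3 was measured on 9 arrays (3 AAP, 3 HAN, 3 PBS pools). Per the file headers, spots were quantified with Agilent Feature Extraction 11.0.1.1, and the deposited processed signal is a linear intensity, background-subtracted and detrended within an array, with no normalisation between arrays. The authors' deposited value table holds the same intensities: at least 99.7% of values on an array equalled the probe mean of the processed signal within a relative tolerance of 0.0001. Its column medians were 265 (AAP 1), 238 (AAP 2), 165 (AAP 3), 251 (HAN 1), 243 (HAN 2), 297 (HAN 3), 298 (PBS 1), 256 (PBS 2) and 232 (PBS 3). The background flags (other columns) come from the same software, per the file headers.

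Control and outlier spots (103 to 160 outliers an array; 0 saturated) were left out. Log2 processed signal minus the array's 75th percentile (1334 to 2343) was averaged over a probe's spots. Probes above background on all arrays of at least 1 group were kept, and a gene took its brightest kept probe. Accessions without versions were matched to a GRCm38.p6 gene table, which named 26055 of 39429 probes. limma 3.58.1 (R 4.3.3) fitted a mean per group over all arrays, two-sided, and was checked on simulated data. Named list genes are the 3 with the smallest p per list and comparison; genes most like a member are the 5 with the highest r among curated, named messenger RNAs. Members, lists and rules were chosen with earlier results of these data known. The number of arrays limits the precision. Alternatives changed background correction, scaling, filter, probe choice, value source, blocks, weights and arrays.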

Additional observations from a re-analysis of the deposited data

Results flagged for a closer look

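Mmp15 stood above the PBS mean on all 3 AAP arrays and below it on all 3 HAN arrays, with mean log2 differences of 0.38 for AAP and -0.24 for HAN. The difference between these effects was not tested, because Mmp15 was picked for its values in these data. Both effects share the PBS arrays.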

How the results depend on the processing

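Of the 6 tested members, 0 passed in any comparison under any alternative, and the differences of Timp1 and Mmp15 kept their direction throughout. The lowest limma adjusted p of a tested member was 0.137, for Mmp14 in HAN against PBS with array weights; over its 18 alternatives it ran up to 0.908. That difference stayed below 0 in 18 of 18 alternatives, from -0.41 to -0.11, the nearest to 0 with slide as a fixed block. With AAP 2 as the only AAP array, chosen after seeing the data and assumed to vary like the other groups, Mmp15 was at 0.47 in AAP against HAN.

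Leaving out each array in turn, Timp1 ranged from -2.72 to -1.98 in AAP against PBS, from -1.10 to -0.40 in HAN against PBS and from -1.94 to -1.22 in AAP against HAN. The number of genes past the threshold ranged from 0 to 12, from 1 to 3 and from 0 to 13 in these comparisons; the 12 and 13 came without AAP 2. The count of 1 in AAP against PBS became 0 with normexp, quantile normalisation, median scaling, no filter, the replicate block and the 2 groups alone, and 48 with slide as a fixed block. In HAN against PBS it became 0 with the replicate block, 2 with the slide block and 3 with array weights. The replicate numbers share only a number (r of same-numbered deviations from -0.28 to 0.40), and the block changed no call of a member.

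Differences changed sign in places, without passing. They were not all near 0: in the main fit Mmp2 was at -0.38 in HAN against PBS and 0.58 in AAP against HAN. In AAP against PBS with normexp Timp3 was at -0.0099 and Timp4 at 0.15; with median scaling Timp3 was at -0.011; with slide as a fixed block Timp2 was at 0.052 and Timp4 at 0.25; with slide as a random block Timp4 was at 0.014; with array weights Mmp9 was at -0.0063; in AAP 2 alone Mmp2 was at -0.49 and Mmp9 at -0.11. In HAN against PBS Mmp9 was at -0.02 with quantile normalisation, -0.019 with median scaling and -0.0077 with array weights; the slide block put Timp3 at 0.56, Timp4 at 0.26 and Mmp2 at 0.68. In AAP against HAN the slide block put Timp3 at -0.17, Timp4 at -0.0094 and Mmp9 at -0.034; AAP 2 alone put Timp4 at -0.014, Mmp2 at -0.11, Mmp9 at -0.13 and Mmp14 at -0.011. The slide block, which sets HAN against PBS through AAP arrays alone, put Timp1 at -0.22 there. Leaving out 1 array, the ranges in AAP against PBS were -0.067 to 0.029 for Timp2, -0.15 to 0.21 for Timp3, -0.15 to 0.077 for Timp4, -0.15 to 0.54 for Mmp2 and -0.026 to 0.14 for Mmp9. In HAN against PBS they were -0.34 to 0.022 for Timp3 and -0.072 to 0.089 for Mmp9, and in AAP against HAN -0.0064 to 0.37 for Timp3 and -0.029 to 0.13 for Mmp9. The causes were not tested. Normexp on the mean signal was not run, since the files used here hold the median signal; the version on the median signal, added later, took the array's median background where a spot's own was an outlier.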
